A study of Homo sapiens with 112 samples.

Results

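The libraries described here come from VCaP cells treated for 8 h with 1 nM R1881 plus 2 µM darolutamide, and they were set against VCaP cells treated for 8 h with 1 nM R1881 and the vehicle DMSO. The comparison holds 5 darolutamide and 10 R1881 libraries of the 112 in the series. A gene entered when 4 or more VCaP libraries held 10 or more reads of it, which left 19266 of the 58684 genes listed. VCaP is an established human prostate cancer line in which a gene fusion puts ERG behind the TMPRSS2 promoter. The androgen was R1881, a synthetic compound that cells degrade slowly, and darolutamide, a prostate cancer drug, blocks the response to it. Before treatment every culture spent 2 days in 10% serum stripped with charcoal, so that every group, vehicle included, was low in serum steroids. Further VCaP groups are used to place the values and to compare doses and times: 10 libraries with DMSO alone at 8 h, 4 with R1881 plus 500 nM darolutamide at 8 h, 5 with R1881 plus 2 µM darolutamide at 22 h and 9 with R1881 alone at 22 h. VCaP libraries with DMSO alone (8) and with R1881 plus 500 nM darolutamide (4) at 22 h complete the 55. All 55 shared the gene filter, the scaling and the estimate of the spread. All groups are cultures of 1 line, and nothing in the sources used here says which cultures were grown side by side, so p-values measure the spread between these cultures only.

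Androgen acts on prostate cells through a hormone-dependent transcription factor that raises the transcription of some genes within hours and lowers that of others. The raised genes are known for secreted proteases such as the kallikreins, for lipid and sterol synthesis and for the machinery that folds and exports secreted proteins, while growth factors and developmental ligands are common among the lowered ones. A competing antagonist given together with the androgen can hold a gene anywhere between the level without hormone and the level with hormone.

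Gene counts of the 5 darolutamide libraries summed to 19011403 to 24869001 reads, and those of the 10 R1881 libraries to 17330086 to 25125789. Mitochondrial genes took 1.20% to 1.45% and 1.04% to 1.56% of the reads. No pair of libraries within a group was as close as counting noise alone would make it. ERG had 1578 to 21554 reads in the 55 VCaP libraries and 0 to 1 reads in the 57 libraries of the other cell line. In edgeR, R1881 libraries 6 to 10 set against libraries 1 to 5 gave 0 called genes and 812 with an unadjusted p below 0.05. Values below are CPM, reads per 1000000 reads counted, scaled by the TMM method, and log2 fold changes come with their standard error (SE). A gene is called where the Benjamini-Hochberg adjusted p of edgeR's quasi-likelihood test over all 19266 genes is under 0.05.

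At 8 h, 2 µM darolutamide changed the expression of 10038 genes against R1881, which is 52.1% of those tested. Of these, 5040 were lower (26.2%) and 4998 higher (25.9%). With an absolute log2 fold change above 1 there were 1657 genes (8.60%), 748 of them lower (3.88%) and 909 higher (4.72%). The 5 darolutamide libraries lay below all 10 R1881 libraries in 2774 genes (14.4%) and above all of them in 2443 genes (12.7%). RDH10, TIPARP and ERRFI1, which R1881 had raised strongly within 8 h, fell most among well-expressed genes, and WNT2, TRIB1 and IGFBP3, which it had lowered, rose most. The long-used readouts of androgen response, KLK2 and KLK3, moved by less than 0.4 on the log2 scale at this time. Leaving out any darolutamide library gave 9429 to 9506 called genes. The genes named below for the size of their change were taken from protein-coding genes with a mean log2 CPM above 3.43, the median of all genes tested, and gene positions are those of GENCODE 44 on GRCh38. The 10 largest falls and 10 largest rises also had to be called and without overlap between darolutamide and R1881 libraries.

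**Figure D1:**
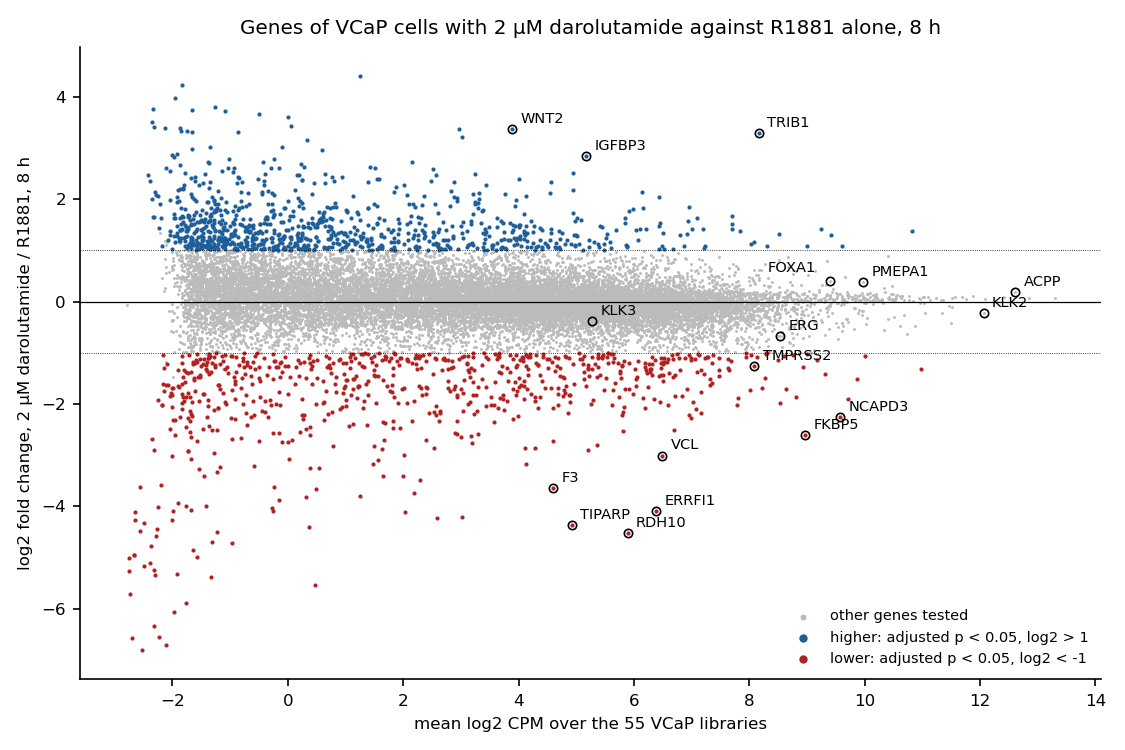
Log2 fold change of each of the 19266 genes tested (2 µM darolutamide over R1881, 8 h) against its mean log2 CPM over the 55 VCaP libraries; blue and red points are the 909 higher and 748 lower genes past log2 1, dotted lines mark log2 1 and -1, and open circles mark named genes. RDH10 lies at -4.53 and WNT2 at 3.37, while KLK2, KLK3 and ACPP lie close to 0.

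The 10 largest falls among well-expressed protein-coding genes were RDH10, TIPARP, ERRFI1, F3, GRHL1, VCL, ANXA2, B4GALNT3, IL20RA and NEURL1B. RDH10, on chromosome 8, a retinol dehydrogenase that makes the precursor of retinoic acid, measured 37.8, 44.1, 41.7, 40.1 and 37.8 CPM in the 5 darolutamide libraries. It measured 726 to 1076 (median 932) with R1881 and 29.7 to 37.1 (median 32.1) with DMSO. All 5 darolutamide libraries were thus far below the R1881 libraries and slightly above the DMSO libraries, and the log2 fold change against R1881 was -4.53 ± 0.084 (SE; adjusted p = 5.12e-45, edgeR). TIPARP (chromosome 3, 156673235 to 156706770), a mono-ADP-ribosyltransferase and also a classic target of the aryl hydrocarbon receptor, gave 18.1, 18.1, 16.9, 18.1 and 17.5 CPM with darolutamide, 315 to 418 (median 374) with R1881 and 9.88 to 12.8 (median 10.9) with DMSO, a log2 fold change of -4.37 ± 0.074 (SE; adjusted p = 1.18e-46, edgeR). ERRFI1 (chromosome 1, 8004404 to 8026309) encodes a feedback inhibitor of the EGF receptor. Its values were 49.3, 50.6, 46.5, 51 and 48.8 CPM with darolutamide against 741 to 948 (median 826) with R1881, a change of -4.09 ± 0.062, and the darolutamide libraries stayed above the DMSO range of 19.9 to 25.6 (median 23).

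F3, tissue factor, the starter of blood coagulation, measured 13.9, 11.5, 13.1, 12.5 and 13.5 CPM with darolutamide, 134 to 185 (median 165) with R1881 and 9.52 to 12.6 (median 11.1) with DMSO. Its darolutamide and DMSO ranges overlapped, although the difference of 0.21 between them had an adjusted p of 0.0341 in edgeR. GRHL1, an epithelial transcription factor of the grainyhead family, showed 9.9, 10.9, 9.78, 11 and 9.96 CPM against 79.6 to 106 (median 93.4) with R1881, a fall by 3.18 ± 0.072 on the log2 scale. VCL, vinculin, which ties focal adhesions to actin, had 52.6, 57, 54.1, 55.9 and 53.9 CPM with darolutamide, 380.2 to 486 (median 437) with R1881 and 50.8 to 61 (median 55.1) with DMSO. The darolutamide libraries of VCL lay inside the DMSO range, and the edgeR difference from DMSO was -0.0099 (adjusted p = 0.905). ANXA2, annexin A2, a membrane-binding protein, had 25.7, 26, 29.6, 27.1 and 27.1 CPM against 179.7 to 225 (median 208) with R1881.

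The remaining falls of this set were in a glycosyltransferase, a cytokine receptor and a ubiquitin ligase. B4GALNT3 gave 20.2, 14, 21.4, 14 and 15.5 CPM with darolutamide and 104 to 146 (median 125) with R1881. The receptor subunit IL20RA gave 31.4, 31.1, 30.4, 31 and 28.6 CPM and 181 to 237 (median 214), and NEURL1B, which acts on Notch ligands, 13.3, 13.5, 14.4, 12.8 and 12.8 CPM and 78 to 98.1 (median 88.2). Their log2 fold changes were -2.86 ± 0.10, -2.79 ± 0.059 and -2.73 ± 0.063. B4GALNT3 spread more than the other pair, with 2 of its 5 darolutamide libraries above 20 CPM and the others at 15.5 CPM or less. Over these 10 genes the adjusted p by edgeR was at most 2.4e-31, and being called was a condition of their selection.

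The 10 largest rises were WNT2, TRIB1, IGFBP3, B3GALT5, P2RY1, DOCK10, NPR3, MID1, OPRK1 and PI15. WNT2 (chromosome 7, 117275451 to 117323152), a secreted WNT ligand, measured 49.9, 46.9, 44.8, 47.2 and 46.9 CPM with darolutamide, 3.93 to 5.35 (median 4.4) with R1881 and 98.8 to 106 (median 105) with DMSO, a log2 fold change against R1881 of 3.37 ± 0.067 (SE; adjusted p = 2.24e-43, edgeR). TRIB1, on chromosome 8, a pseudokinase that steers protein degradation, measured 433, 432, 378, 431 and 434 CPM with darolutamide, 31.3 to 50.9 (median 44.2) with R1881 and 1185 to 1339 (median 1204) with DMSO. Darolutamide replicate 3 was the lowest of the 5 for TRIB1 and still lay far above every R1881 library. IGFBP3 (chromosome 7, 45912245 to 45921874), which binds insulin-like growth factors in the extracellular space, measured 74.9, 84.2, 81.1, 85 and 81.5 CPM with darolutamide, 9.88 to 12.6 (median 11.6) with R1881 and 305 to 390.5 (median 321) with DMSO. For these 3 genes the darolutamide libraries sat between the control groups with no overlap on either side. The separation from R1881 was a condition of their selection, that from DMSO was not.

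Receptors and enzymes made up most of the other rises. B3GALT5, a galactosyltransferase, showed 24.4, 28.9, 27.2, 27 and 24.4 CPM against 4.06 to 6.87 (median 4.93) with R1881, and P2RY1, a receptor for extracellular ADP, 29.4, 36.9, 34.3, 36.4 and 33.2 CPM against 5.6 to 7.65 (median 6.72). DOCK10, a guanine nucleotide exchange factor, showed 17.2, 21, 15.6, 18.5 and 20 CPM against 2.37 to 4.78 (median 3.83). NPR3, the clearance receptor for natriuretic peptides, came close to the level without hormone, with 38.7, 35.6, 36.9, 42.5 and 37.6 CPM against 6.67 to 10.9 (median 8.45) with R1881 and 39.7 to 48.2 (median 42.7) with DMSO. MID1, a microtubule-bound ubiquitin ligase, gave 99.4, 108, 98.4, 101 and 104 CPM against 19.1 to 25.8 (median 23.6), and OPRK1, the kappa opioid receptor, 41.5, 42.1, 39.6, 41.8 and 39.6 CPM against 8.23 to 11 (median 9.56). PI15, a secreted peptidase inhibitor, gave 29.8, 33.3, 26.9, 33.2 and 32.7 CPM against 4.98 to 9.71 (median 7.48). That no R1881 library of these 7 genes reached any darolutamide library was a condition of their selection. The log2 fold changes ranged from 2.10 for PI15 to 2.39 for B3GALT5. The adjusted p was at most 4.53e-29 by edgeR, and being called was also a condition.

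**Figure D2:**
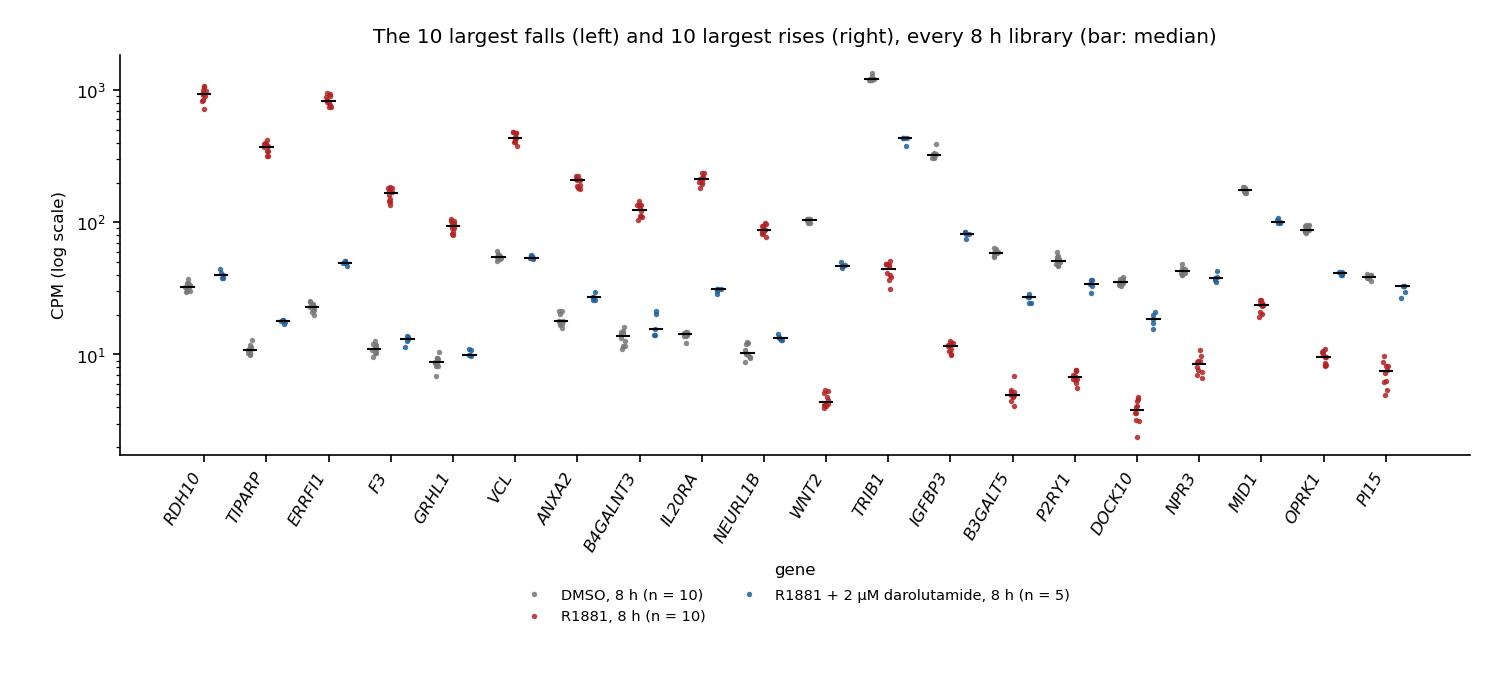
CPM on a log axis in every 8 h library for the 10 largest falls (RDH10 to NEURL1B) and the 10 largest rises (WNT2 to PI15): grey, DMSO (n = 10); red, R1881 (n = 10); blue, R1881 plus 2 µM darolutamide (n = 5); bars are medians. The blue points lie near the grey ones for VCL and F3, and between grey and red on the log axis for TRIB1 and IGFBP3.

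The best-known androgen targets of the prostate responded to very different degrees at 8 h. FKBP5 (chromosome 6, 35573585 to 35728583), a co-chaperone of steroid receptors, measured 459, 492, 467, 496 and 479.8 CPM with darolutamide, 2691 to 3188 (median 2968) with R1881 and 71.2 to 86 (median 80.7) with DMSO. It fell by 2.62 ± 0.043 on the log2 scale (adjusted p = 4.03e-47, edgeR) and stayed above every DMSO library. NCAPD3 (chromosome 11, 134150113 to 134225504), a condensin subunit, measured 728, 747, 780.3, 776 and 729 CPM against 3482 to 3781 (median 3619.6) with R1881, a fall by 2.27 ± 0.042 on the log2 scale. TMPRSS2 (chromosome 21, 41464300 to 41531116), a membrane serine protease, measured 229, 210.5, 222, 219.6 and 219 CPM with darolutamide against 489 to 559 (median 536) with R1881 and 50.4 to 57.9 (median 54.9) with DMSO. ERG (chromosome 21, 38380027 to 38661780), which the fusion places behind the TMPRSS2 promoter, measured 408, 395, 385, 401 and 399 CPM against 562 to 727 (median 616) and 117 to 131 (median 124). TMPRSS2 changed by -1.27 ± 0.035 and ERG by -0.67 ± 0.036, and the reads do not tell the fusion transcript from the 2 unfused genes. IGF1R (chromosome 15, 98648539 to 98964530), the receptor for insulin-like growth factors, measured 517, 556, 541, 544 and 551 CPM against 838 to 935 (median 899.6) with R1881, a fall by 0.72 ± 0.028.

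KLK2 and KLK3, the kallikreins followed here, moved little. KLK2 (chromosome 19, 50861568 to 50880567), a secreted protease of the prostate, measured 4302, 3798, 4329, 4148 and 4212 CPM with darolutamide, 4602 to 5087 (median 4853) with R1881 and 2349 to 2706 (median 2445) with DMSO. All 5 darolutamide libraries were below the R1881 libraries and far above the DMSO libraries, at a log2 fold change of -0.23 ± 0.033 (SE; adjusted p = 6.4e-08, edgeR). KLK3 (chromosome 19, 50854915 to 50860764), which encodes prostate-specific antigen, measured 29.6, 25.4, 37.5, 29 and 27 CPM with darolutamide, 33.5 to 46.9 (median 37.6) with R1881 and 14.2 to 18.8 (median 16.9) with DMSO. Darolutamide replicate 3 of KLK3 lay within the R1881 range, and the log2 fold change was -0.38 ± 0.07 (SE; adjusted p = 7.55e-06, edgeR). KLK2 and KLK3 are alike in sequence, and how the authors' counting treated reads that fit both is not given in the sources used here. MED1, a mediator subunit, showed 127, 144, 124, 137 and 135 CPM against 134 to 164 (median 152) with R1881, an overlapping fall by 0.19 ± 0.036 with an adjusted p of 1.69e-05 by edgeR.

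PMEPA1, FOXA1 and ACPP were higher with darolutamide than with R1881. PMEPA1 (chromosome 20, 57648392 to 57711536), an inhibitor of TGF-beta signalling that R1881 raised, measured 1352, 1337, 1360.0, 1355 and 1303 CPM with darolutamide, 980.5 to 1087 (median 1024) with R1881 and 608 to 671 (median 646) with DMSO. It was therefore above both controls, by 0.38 ± 0.024 against R1881 and by 1.06 against DMSO. FOXA1 (chromosome 14, 37589552 to 37596059), a pioneer transcription factor of the prostate, gave 746, 764, 718, 761 and 734 CPM against 513 to 614 (median 564) with R1881 and 646 to 706 (median 666) with DMSO, and was called above both (adjusted p = 0.000691 in edgeR for lying outside both). ACPP (chromosome 3, 132317369 to 132368302), prostatic acid phosphatase, gave 5092, 5194, 4719, 5088 and 5110.2 CPM against 3851 to 4812 (median 4433) with R1881 and 5475 to 6229 (median 5923) with DMSO, a difference of 0.19 ± 0.041 (SE; adjusted p = 9.44e-05, edgeR) from R1881. Its lowest darolutamide library lay inside the R1881 range. ACPT, a testicular acid phosphatase, had 0 to 5 reads in the darolutamide libraries and 1 to 8 in the R1881 libraries and was not tested.

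The 250 bases before the start site of KLK3, MID1 and MYBPC1 are shown because KLK3 fell slightly, MID1 rose strongly and MYBPC1 was above both controls at 8 h and below R1881 at 22 h, and each holds a letter match to a motif of the hormone response. They are given 5′ to 3′ on the strand of the gene, from RefSeq on GRCh38.p14, with the matched letters in capitals.
KLK3 (chr19:50854665-50854914, plus strand): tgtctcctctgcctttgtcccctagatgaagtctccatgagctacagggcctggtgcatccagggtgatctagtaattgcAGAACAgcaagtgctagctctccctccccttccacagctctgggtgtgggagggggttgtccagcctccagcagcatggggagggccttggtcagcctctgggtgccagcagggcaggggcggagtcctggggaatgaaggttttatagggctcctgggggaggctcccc
MID1 (chrX:10833684-10833933, minus strand): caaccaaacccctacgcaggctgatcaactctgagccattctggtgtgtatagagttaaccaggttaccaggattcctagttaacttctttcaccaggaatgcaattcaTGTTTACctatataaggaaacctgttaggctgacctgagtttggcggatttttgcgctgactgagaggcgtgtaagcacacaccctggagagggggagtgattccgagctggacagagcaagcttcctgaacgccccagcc
MYBPC1 (chr12:101594721-101594970, plus strand): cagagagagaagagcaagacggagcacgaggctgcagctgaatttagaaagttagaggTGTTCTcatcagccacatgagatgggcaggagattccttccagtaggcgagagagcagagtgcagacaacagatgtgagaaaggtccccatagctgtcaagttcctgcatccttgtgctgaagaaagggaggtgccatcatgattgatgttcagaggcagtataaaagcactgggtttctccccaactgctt
In KLK3 the capitals mark AGAACA, the hexamer that forms each arm of an androgen response element, with its first base 170 bases before the start site. In MYBPC1, a gene of a myosin-binding protein, they mark the same hexamer on the other strand, TGTTCT, 192 bases before it. In MID1 they mark the forkhead word TGTTTAC, 141 bases before it. Both strands of 300 bases, from 250 before to 50 after the start, were searched for these words and for the full element, AGNACA and TGTNCT with any 3 bases between, which contains a hexamer in each arm. AGAACA was in 8.80% and TGTTTAC in 2.22% of the 11328 promoters of tested genes, and an exact match to the full element was in 0 of them. Elements with other letters were missed by this search. In KLK3 the hexamer is followed, after 3 bases, by agtgct, which differs from TGTNCT in its first letter only. Whether this site acts as a full element was not tested. FKBP5 held AGAACA starting at its start site and PMEPA1 held it 22 bases after. A promoter was matched for only 422 of the 748 genes lower and 506 of the 909 genes higher past log2 1, under 80% of either, so a comparison of motif shares between them is void.

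Of 58 androgen-induced genes tested, 41 were lower with darolutamide (70.7% against the background of 26.2%). Of the others, 14 were higher (24.1%, background 25.9%) and 3 were not called. Their median log2 fold change was -0.58, against 0.01 over all genes tested. SGK1, a kinase of the insulin and steroid response, fell by 3.50 on the log2 scale, and was followed by FKBP5. GUCY1A3, a subunit of soluble guanylate cyclase, and PPFIBP2, a liprin, rose by 0.73 and 0.72. R1881 itself had lowered both of these at 8 h, by -0.91 and -0.88 log2 (their differences from DMSO). STEAP2, SLC45A3 and NKAIN1 were the members not called, with differences of 0.035, 0.12 and 0.15. Of 20 androgen-repressed genes, 18 were higher (90% against 25.9%), 1 was lower and 1 was not called, with a median of 1.42. WNT2 and IGFBP3 led the rises, and the fall was in CITED2, a transcriptional coregulator, at -1.71, which R1881 had raised by 2.09.

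The genes of the secretory route fell together. Of 43 genes for protein folding in the endoplasmic reticulum and the unfolded protein response, 36 were lower (83.7%, background 26.2%), 0 higher and 7 not called, with a median log2 fold change of -0.59. No member was higher at an unadjusted p below 0.05 in edgeR or called higher by DESeq2. CREB3L2, a membrane-bound transcription factor of secretory cells, fell by 2.11 ± 0.036 and ERN1, the stress sensor IRE1, by 1.86 ± 0.043. Of 34 genes of the COPI and COPII coats, which carry cargo between the endoplasmic reticulum and the Golgi, 30 were lower (88.2%), 1 higher and 3 not called, with a median of -0.50. SEC24D, a cargo-binding subunit of COPII, fell by 1.51 and ARCN1, a COPI subunit, by 0.96, while TMED3, a cargo receptor, rose by 0.26. R1881 had raised the median of both lists over DMSO, by 0.76 and 0.64 log2, and against DMSO the darolutamide medians were 0.13 and 0.10. Hexosamine and glycosylation enzymes were mixed, with 15 of 30 lower (50.0%, background 26.2%) and 8 higher (26.7%, near the background of 25.9%). B3GNT2 and GMPPB fell by 1.55 and 1.23, whereas GALNT3 and GCNT2, which start and branch sugar chains, rose by 1.02 and 1.88.

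Lipid genes fell less uniformly, beside shares of 26.2% lower and 25.9% higher over all genes. Of 25 genes of cholesterol synthesis and uptake, 16 were lower (64.0%), 0 higher and 9 not called, with a median of -0.41, and neither an unadjusted p below 0.05 in edgeR nor DESeq2 gave a higher member. IDI1, an isomerase of the isoprenoid route, fell by 1.41 ± 0.053 and NSDHL, a late enzyme of the pathway, by 1.13 ± 0.062. Of 25 genes of fatty acid synthesis and desaturation, 13 were lower (52.0%) and 5 higher (20%). ACSL3, which activates long-chain fatty acids, fell by 1.51 and the elongase ELOVL7 by 1.14, while ACACB, the acetyl-CoA carboxylase of the mitochondrial surface, rose by 0.46 and MCAT by 0.23. The MCAT call was lost with only R1881 replicates 6 to 10 (log2 0.15, adjusted p = 0.087 in edgeR). Of 26 genes of fatty acid oxidation, 11 were lower (42.3%) and 5 higher (19.2%, below the background), among them ECI2 at -1.17, ACADL at -1.03, HADH at 0.30 and EHHADH at 1.01.

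Ribosome biogenesis ran the opposite way. Of 39 factors that make and assemble ribosomal subunits, 35 were higher with darolutamide (89.7%, background 25.9%), 0 lower and 4 not called, with a median of 0.33. No member was lower at an unadjusted p below 0.05 in edgeR or called lower by DESeq2. WDR12, of the large subunit, and DKC1, the pseudouridine synthase, rose by 0.71 ± 0.051 and 0.68 ± 0.035. The changes were small, and 0 of the 39 passed log2 1. The same factors had a median of -0.53 with R1881 against DMSO and of -0.18 with darolutamide against DMSO. MYC, a transcription factor of growth, rose by 1.63 ± 0.067, and its relative MYCL fell by 1.08 ± 0.096. Within the 12 genes of the MYC network tested, 4 were lower and 4 higher (33.3% each, against 26.2% and 25.9% over all genes). MXI1 and MXD4, the others named, stood at 0.63 and -0.46.

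Among 20 aminoacyl-tRNA synthetases, 9 were lower (45%, background 26.2%) and 5 higher (25%, background 25.9%), from TARS at -0.73 and CARS at -0.50 to FARSB and VARS, both at 0.35. The ATF4 and amino acid response gave 13 lower (48.1%) and 6 higher (22.2%) of 27, so that the higher shares of these lists were near the background. CHAC1, which breaks down glutathione, and the stress factor ATF3 fell by 1.60 and 1.24, and PSAT1, of serine synthesis, and the secreted glycoprotein gene STC2 rose by 0.64 and 1.21. CHAC1 rested on only 8 to 13 reads and ATF3 on 5 to 12 reads in each darolutamide library. Of 15 polyamine genes, 8 were lower (53.3%) and 2 higher (13.3%). Spermine synthase (SMS) fell by 1.00 and spermine oxidase (SMOX) by 1.57, while ARG2, the mitochondrial arginase, and MTAP, which salvages methylthioadenosine, rose by 2.05 and 0.93.

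Cell-cycle genes moved by little at 8 h. Of 43 genes of G1/S and DNA replication, 13 were lower (30.2%, background 26.2%) and 19 higher (44.2%, background 25.9%), with a median of 0.12. CDK6 and the inhibitor CDKN1A fell by 1.21 and 1.09, and the ubiquitin ligase subunit SKP2 and the helicase subunit MCM2 rose by 0.40 and 0.42. Of 35 genes of G2 and mitosis, 10 were lower (28.6%), which is near the background of 26.2%. Of the same genes 3 were higher (8.57%, background 25.9%) and 22 not called, with a median of -0.08. KIF20A, a kinesin of cell division, fell by 0.66 and the kinase AURKB by 0.41, while the checkpoint genes TTK and MAD2L1 rose by 0.61 and 0.49.

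Transcription factors of the prostate lineage were split, with 8 of 18 lower and 8 higher (44.4% each, against 26.2% and 25.9% over all genes). SOX9, a factor of prostate epithelial growth, fell by 2.51 ± 0.049 and the luminal factor SPDEF by 1.88 ± 0.24, whereas PGR, the progesterone receptor, rose by 1.19 ± 0.36 on only 8 to 14 reads in each darolutamide library. Of 24 steroid receptor coregulators and mediator subunits, 13 were lower (54.2%) and 2 higher, and none passed log2 1. PIAS1, a SUMO ligase, changed most, by -0.98, and MED14 and NCOA2 were the rises, at 0.25 and 0.24. Of 21 chaperones of steroid receptors, 13 were lower (61.9%) and 2 higher. After FKBP5, the HSP40 member DNAJB1 fell furthest, by 0.89, and BAG1 and FKBP4 rose by 0.33 and 0.14.

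Genes shared with other ligand-activated pathways held some of the steepest falls. Of 8 aryl hydrocarbon receptor targets tested, 4 were lower (50%, background 26.2%) and 1 higher (12.5%, background 25.9%). Besides TIPARP, CYP1A1, the classic induced member, fell by 2.38 ± 0.13, and CYP1B1, a related enzyme, rose by 0.55 ± 0.071. Of 20 genes of the steroid response shared with glucocorticoids, 11 were lower (55%) and 4 higher, with a median of -0.69. PDK4, a kinase that turns off pyruvate oxidation, fell by 4.98 ± 0.27, at a mean level under 1 CPM. Its difference from DMSO was -0.059 ± 0.45, on only 0 to 4 reads in each darolutamide library. TXNIP, a regulator of glucose uptake, and the clock gene PER2 rose by 0.59 and 0.45. Of 29 genes of PI3K, AKT and mTOR signalling, 12 were lower (41.4%) and 9 higher (31.0%). SGK1 and FOXO1 led the falls, the second by 1.31, and DEPTOR, an mTOR inhibitor, and the insulin receptor substrate IRS1 led the rises, at 0.88 and 0.78. Of 24 WNT ligands and feedback genes, 7 were lower (29.2%, near the background) and 10 higher (41.7%). WNT7B and the receptor ROR1 fell by 2.36 and 1.04, and WNT10B rose beside WNT2, by 1.91.

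**Figure D3:**
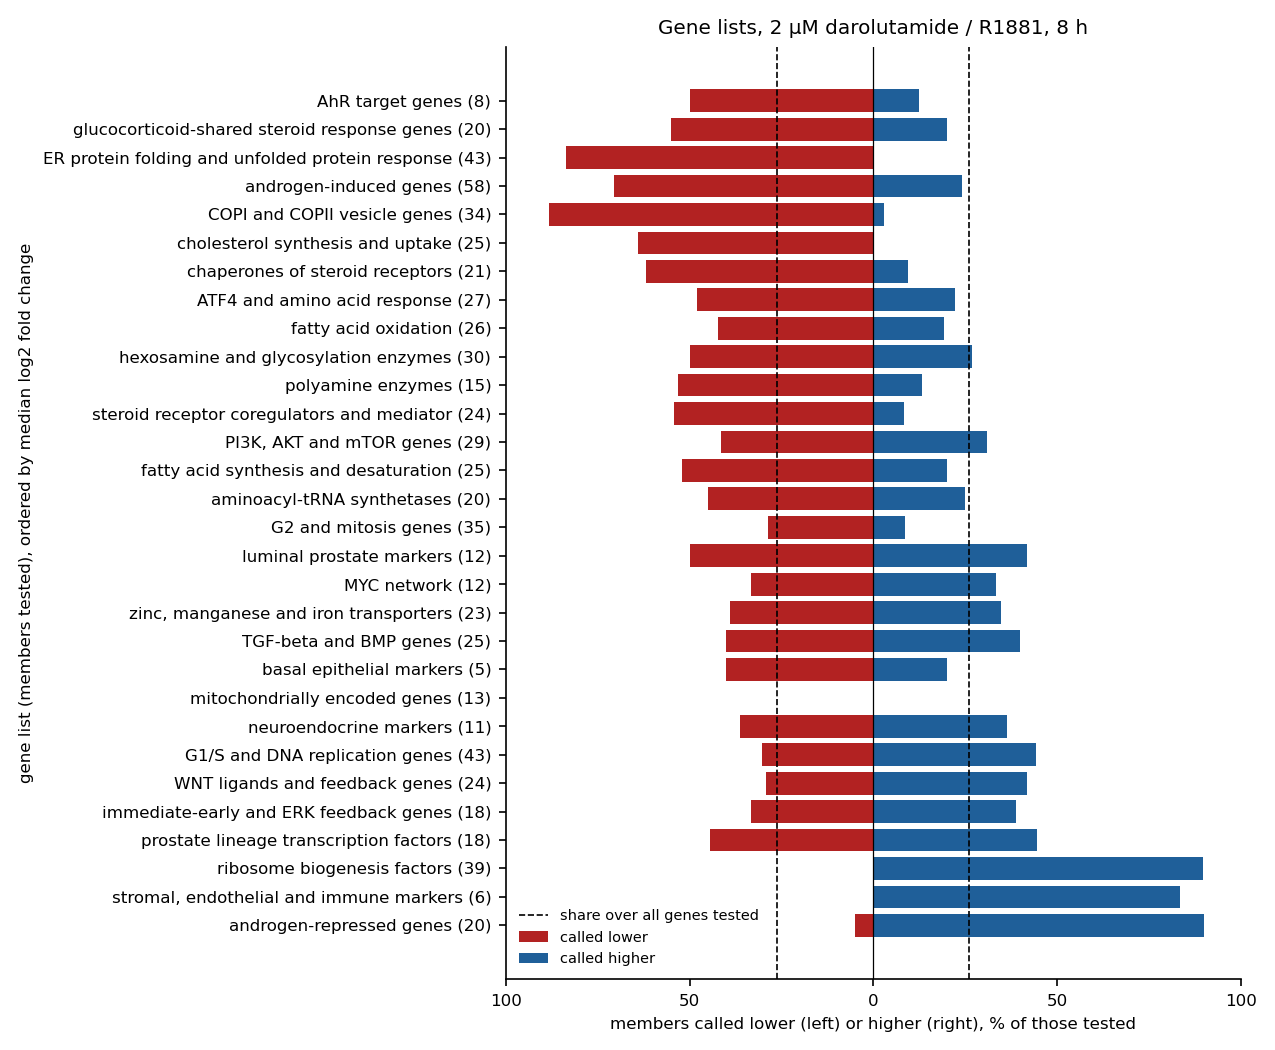
Share of each gene list's tested members (number in brackets) called lower, to the left in red, or higher, to the right in blue, with 2 µM darolutamide against R1881 at 8 h; dashed lines give the shares over all genes tested, 26.2% and 25.9%, and lists are ordered by their median log2 fold change. The secretory lists reach 83.7% and 88.2% lower, ribosome biogenesis factors 89.7% higher, and the mitochondrially encoded genes show no call.

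The markers of luminal prostate epithelium, the cell type of VCaP, stood far above those of other cell types. The 12 luminal markers summed to 16297 to 16744 CPM with darolutamide and 15002 to 16063 CPM with R1881, and 6 were lower and 5 higher. The keratins KRT8 and KRT18 fell by 1.98 and 1.69, and FOLH1, prostate-specific membrane antigen, rose by 1.47. On the same unscaled basis the 7 basal markers summed to 92.3 to 103.7 with darolutamide and 82.7 to 99.9 with R1881. KRT5 had 0 reads in both groups. Of the 5 basal markers tested, NGFR and KRT15 fell, by 1.94 and 1.69, and LAMB3 rose by 1.48. They rested on only 3 to 6, 2 to 7 and 0 to 11 reads in each darolutamide library. The LAMB3 call was lost without darolutamide replicate 3 (log2 1.02, adjusted p = 0.11 in edgeR). The 15 neuroendocrine markers summed, unscaled, to 426.2 to 460.3 with darolutamide and 397.2 to 441.6 with R1881. Of 11 tested, 4 were lower and 4 higher (36.4% each, against 26.2% and 25.9% over all genes). They ran from SCGN at -0.36 and INSM1 at -0.22 to SCG2 at 0.25 and SRRM4 at 0.51. The SCG2 call was lost without darolutamide replicate 2 (log2 0.21, adjusted p = 0.051 in edgeR). The 19 stromal, endothelial and immune markers summed, unscaled, to 14.4 to 16.6 with darolutamide, 5.29 to 7.62 with R1881 and 32.4 to 38.7 with DMSO. COL1A2, CD3E and HBB were among those at 0 in all 3 groups. Of the 6 tested, 5 were higher (83.3%, background 25.9%), led by COL3A1 and LUM, matrix genes, at low levels, by 3.76 ± 0.69 and 1.91 ± 0.11. COL3A1 had only 2 to 8 reads in each darolutamide library and so passed the read filter through other groups. The other 13 markers did not pass it, so the share covers only members with enough reads somewhere in VCaP. The median of the 6 with R1881 against DMSO was -1.36. None of the 13 mitochondrially encoded genes was called in edgeR or DESeq2 or had an unadjusted p below 0.05, and their log2 fold changes lay between -0.11 and 0.12. The part of these marker changes in the other results was not tested. The KRT8 and KRT18 counts may share reads with their many pseudogene copies and are uncertain to that extent. In bulk samples fewer cells of a type and less RNA per cell cannot be told apart.

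Where darolutamide left a gene between the controls was expressed as its position, the move from the R1881 level as a percent of the distance from R1881 to DMSO on the log2 scale, so that 0% is the R1881 and 100% the DMSO level. R1881 had raised 6327 genes (32.8%) and lowered 6564 (34.1%) against DMSO, and 5289 genes still differed from DMSO with darolutamide (27.5%). The position was computed for the 823 genes with an absolute R1881 effect above log2 2 at 8 h, and it is a description, since both differences share the R1881 libraries. Single genes ran from -41.3%, beyond the R1881 level, to 286%, beyond the DMSO level. The median was 66.8%, and the middle of the distribution ran from 53.2% to 78.5% between its quartiles. The 441 genes raised by R1881 had a median of 68.6% (quartiles 48.2% and 85.2%) and the 382 lowered genes one of 65.9% (57.1% and 72.3%). At or above 90% lay 76 of the raised and 5 of the lowered genes, and under 25% lay 28 of the raised and 1 of the lowered. Raised genes thus spread to both ends, while lowered genes stayed near the middle.

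Among well-expressed protein-coding genes, the low end held SEC14L2, a lipid-transfer protein, at 9.18%, with 54.9, 49.3, 52.1, 54.9 and 49.7 CPM against 57 to 65.6 (median 62.2) with R1881 and 8.03 to 10.3 (median 9.36) with DMSO. SLC36A1, an amino acid transporter, stood at 16.7%, the calcium channel subunit CACNG4 at 18.3% and SEMA3C, a secreted guidance cue, at 22.2%. At the high end of the same genes, RALY, an RNA-binding protein, stood at 96.2%, PHF19, a polycomb partner, at 96.6%, ARG2 at 98.3% and VCL at 100%. PHF19 had 18.3, 16.7, 17.5, 18.2 and 17.2 CPM against 70 to 90.8 (median 78.8) with R1881 and 13.2 to 17.9 (median 17.3) with DMSO, so its darolutamide libraries overlapped those without hormone. RALY spread more widely, with 62.7, 49.5, 67.3, 52.1 and 49.6 CPM against 167 to 291 (median 218). Without any one darolutamide library the median over all 823 genes was 66.5% to 67.0%.

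The high dose was set against 500 nM darolutamide at the same time, with 4 libraries, to see where the concentration mattered. In edgeR, 3386 genes differed between the doses (17.6%), 1936 lower (10.0%) and 1450 higher (7.53%) with 2 µM. With a slope for GC content as a covariate the count was 5129, and without the gene filter 2792. RDH10 differed most, by -2.84 ± 0.084, with 274 to 300.2 (median 289) CPM at 500 nM. ERRFI1, at 199 to 216 (median 206) CPM with 500 nM, differed by -2.07 ± 0.063, and TIPARP, at 62 to 73 (median 67.3) CPM, by -1.93 ± 0.077. The higher genes were led by WNT2, TRIB1 and IGFBP3, which had 13.6 to 17.5 (median 16.2), 141 to 174 (median 146) and 27.5 to 29.4 (median 28.1) CPM at 500 nM and differed by 1.57, 1.48 and 1.52. For each of these 6 genes the ranges of the doses did not overlap, but they were chosen as the largest called differences between the doses. The 748 genes lower past log2 1 with 2 µM had a median log2 fold change against R1881 of -1.54, beside -0.88 with 500 nM, and the 909 higher genes one of 1.36, beside 0.81. These values share the R1881 libraries, and the genes were chosen on the 2 µM values.

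KLK2 and KLK3 were called against R1881 with the high dose and not with the low one, and the doses differed. At 500 nM, KLK2 differed from R1881 by 0.018 (adjusted p = 0.763 in edgeR) and KLK3 by -0.034 (0.782), and the differences between the doses were -0.24 ± 0.04 (adjusted p = 4.41e-06) and -0.34 ± 0.085 (0.00195). FKBP5, NCAPD3 and TMPRSS2 differed between doses by -1.61, -1.52 and -0.98. PMEPA1 stood at 1309 to 1350.4 (median 1318) CPM with 500 nM, a difference of 0.019 ± 0.03 between doses (adjusted p = 0.776 in edgeR), which gave no call.

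The effect at 8 h was compared with that at 22 h, which rests on other libraries, by an interaction contrast. In edgeR it differed for 9353 genes (48.5%), and 12896 genes were called at 22 h alone (66.9%). Among the well-expressed genes called at 8 h and for the interaction, RDH10 weakened most, from -4.53 at 8 h to -1.02 at 22 h, and the R1881 level itself was only 24.7 to 33.8 (median 30.4) CPM at 22 h. VCL went from -3.01 to -0.24, with an R1881 level of 64.9 to 75.1 (median 72.1) CPM at 22 h. F3, B4GALNT3 and NEURL1B had effects of -1.14, -0.31 and -0.21 at 22 h, where R1881 alone gave median levels of 27.1, 11.5 and 23.3 CPM. In these 5 genes the R1881 level at 22 h was far below that at 8 h. For IL20RA the effect at 22 h was -2.76, and the interaction of 0.037 ± 0.079 (adjusted p = 0.732 in edgeR) gave no call.

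The effect grew for several targets whose R1881 level was higher at 22 h than at 8 h. STEAP4, a metalloreductase, had 141, 152, 141, 149 and 142 CPM with darolutamide and 337 to 435 (median 392) with R1881 at 8 h, and 37.8 to 44.1 (median 41.5) and 877 to 1095 (median 949) at 22 h, so its effect went from -1.45 to -4.53 (interaction -3.08 ± 0.077). KLK3 went from -0.38 to -2.46, and KLK2 from -0.23 to -1.10. TMPRSS2, FKBP5 and NCAPD3 reached -3.12, -4.07 and -3.72 at 22 h. The darolutamide libraries of KLK2 were at 3759 to 4183 (median 3978) CPM at 22 h, near their 8 h level, while those with R1881 alone had reached 8159 to 8742 (median 8532) CPM. ACPP, MYBPC1 and MYO1G, an unconventional myosin, were higher than R1881 at 8 h and lower at 22 h, with effects of 0.19 and -0.89, of 0.44 and -1.92, and of 0.77 and -2.01. The effect on WNT2 was 6.32 at 22 h, where the R1881 libraries held 0.185 to 0.842 (median 0.574) CPM. The interaction had an adjusted p of at most 1.68e-22 for STEAP4, KLK2, KLK3, TMPRSS2, ACPP and MYBPC1 and of 5.07e-15 for MYO1G in edgeR.

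**Figure D4:**
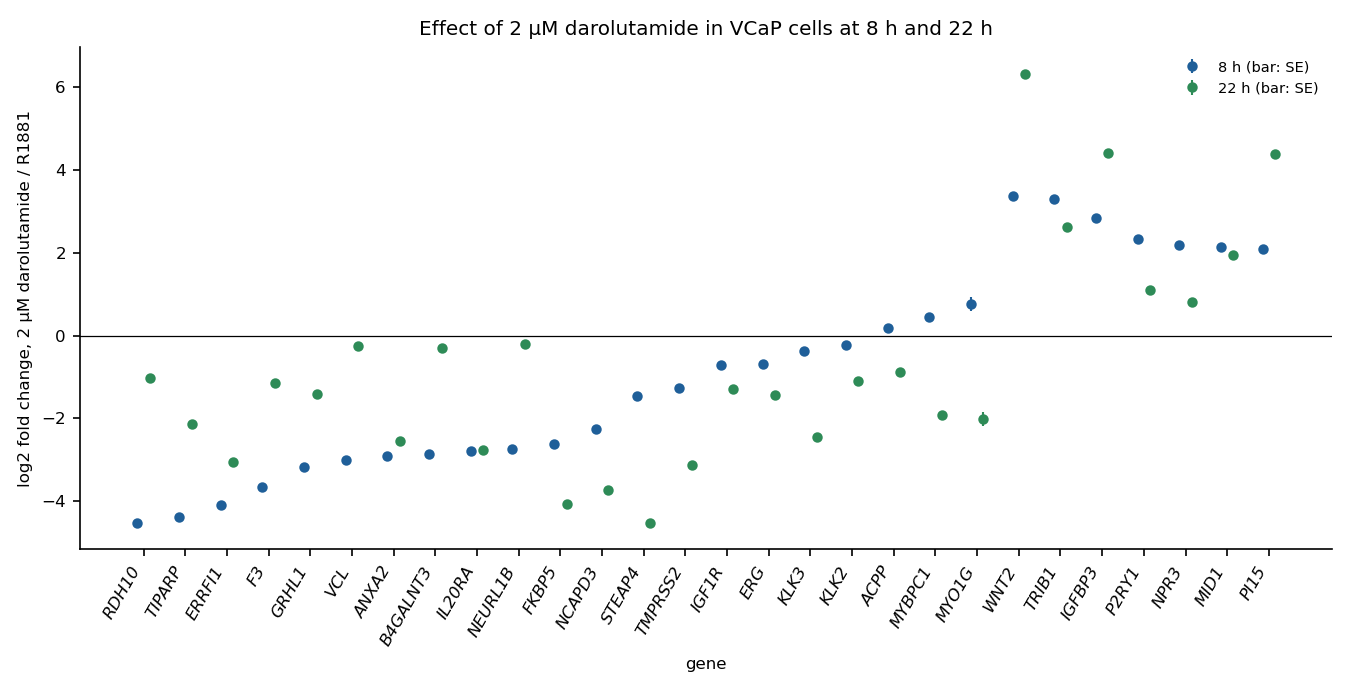
Log2 fold change of 2 µM darolutamide over R1881 at 8 h (blue; 5 against 10 libraries) and at 22 h (green; 5 against 9 libraries) for named genes, with SE bars that are mostly shorter than the points. RDH10, VCL and NEURL1B move towards 0 at 22 h, STEAP4, KLK3 and TMPRSS2 away from it, and ACPP, MYBPC1 and MYO1G cross it.

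A small set of 226 genes (1.17%) was outside both controls, that is, higher than with R1881 and with DMSO or lower than with either. Of these, 163 were above (0.846%) and 63 below (0.327%). With a slope for GC content as a covariate, 393 genes were outside both, and without any one darolutamide library 187 to 200 were. With only replicates 1 to 5 of the R1881 and DMSO groups the count was 164, and with only replicates 6 and above 177. Without the gene filter it was 182. DPP4 (chromosome 2, 161992245 to 162074394), a cell-surface peptidase, had 69.9, 66.4, 64, 71.4 and 64.2 CPM with darolutamide, 26.9 to 34.3 (median 31.5) with R1881 and 27.8 to 32.9 (median 29) with DMSO. It was more than doubled against either control, at log2 1.12 ± 0.051 and 1.18 ± 0.051. AKAP5, which anchors protein kinase A, had 21.1, 21.8, 22.2, 23 and 23.1 CPM, above 6.94 to 10.3 (median 8.7) with R1881 and 12.2 to 13.6 (median 12.9) with DMSO. TMEFF2, a transmembrane protein of the prostate and brain, had 242, 279, 236, 261 and 262 CPM against 79.3 to 108 (median 97) and 143 to 160.5 (median 156). Both were lowered by R1881 and rose past the DMSO level with darolutamide.

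RASSF3 and TAOK3 stood above controls that were close to each other, with R1881 differing from DMSO by 0.10 (adjusted p = 0.0184, edgeR) and 0.068 (0.153). RASSF3, a Ras-association protein, had 253, 262, 250.5, 271 and 255 CPM with darolutamide, 133 to 183 (median 160.4) with R1881 and 144 to 158 (median 148) with DMSO. The kinase TAOK3 had 67.2, 72.2, 69.7, 71.8 and 68.7 CPM, 35.2 to 48.4 (median 44.5) and 37.6 to 46.3 (median 41). Their log2 fold changes against R1881 were 0.69 ± 0.046 and 0.68 ± 0.05. At 22 h both were lower with darolutamide than with R1881, with log2 fold changes of -0.39 and -0.45. The adjusted p for lying above both controls was at most 5.72e-13 in edgeR for these 5 genes, and being called above both was a condition of their selection.

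Below both controls, GRB10 (chromosome 7, 50590063 to 50793462), an adaptor of the insulin and IGF receptors, had 43.6, 50.2, 42.4, 44.8 and 43.6 CPM with darolutamide, 91.8 to 125 (median 103) with R1881 and 75.8 to 86.3 (median 82.1) with DMSO, at log2 -1.25 ± 0.049 and -0.86 ± 0.049. ITPR1, a calcium channel of the endoplasmic reticulum, had 184, 194, 190.2, 187 and 195 CPM, 318 to 380.3 (median 339) and 265 to 301 (median 288). NUCB2, a calcium-binding protein, had 46.9, 49.1, 46.4, 44.2 and 45 CPM, 60.6 to 80.5 (median 73.2) and 69.4 to 80.8 (median 72.8). In these 3 genes no darolutamide library reached either control. ASB9, a substrate receptor of ubiquitin ligases, had 13.6, 14.4, 13.4, 13.4 and 13.4 CPM, 19.3 to 24.2 (median 22.1) and 17.5 to 22.2 (median 20.8). PTCHD2, a membrane protein with a patched domain, had 11.2, 10.3, 13.5, 10.3 and 9.05 CPM, 14 to 27.9 (median 18.7) and 11.1 to 25.7 (median 17.4). PTCHD2 overlapped the DMSO libraries and only just passed, with an adjusted p of 0.0461 in edgeR, against at most 2.92e-09 for the other 4.

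The differences of these genes from R1881 were of like size at the low dose. Over the 163 genes above both, the median log2 fold change against R1881 was 0.41 with 2 µM and 0.39 with 500 nM, and over the 63 below it was -0.49 and -0.48. The genes were chosen on the 2 µM values, and both medians share the R1881 libraries. GRB10 measured 40.7 to 44.3 (median 43.2) CPM with 500 nM, a difference of 0.066 ± 0.059 between doses (adjusted p = 0.553 in edgeR). DPP4, AKAP5 and TMEFF2 were higher with the high than with the low dose, by 0.24, 0.40 and 0.38, and RASSF3 and TAOK3 gave no call between doses, at 0.10 and 0.057. ITPR1 was lower with the high dose, by -0.20 ± 0.042.

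**Figure D5:**
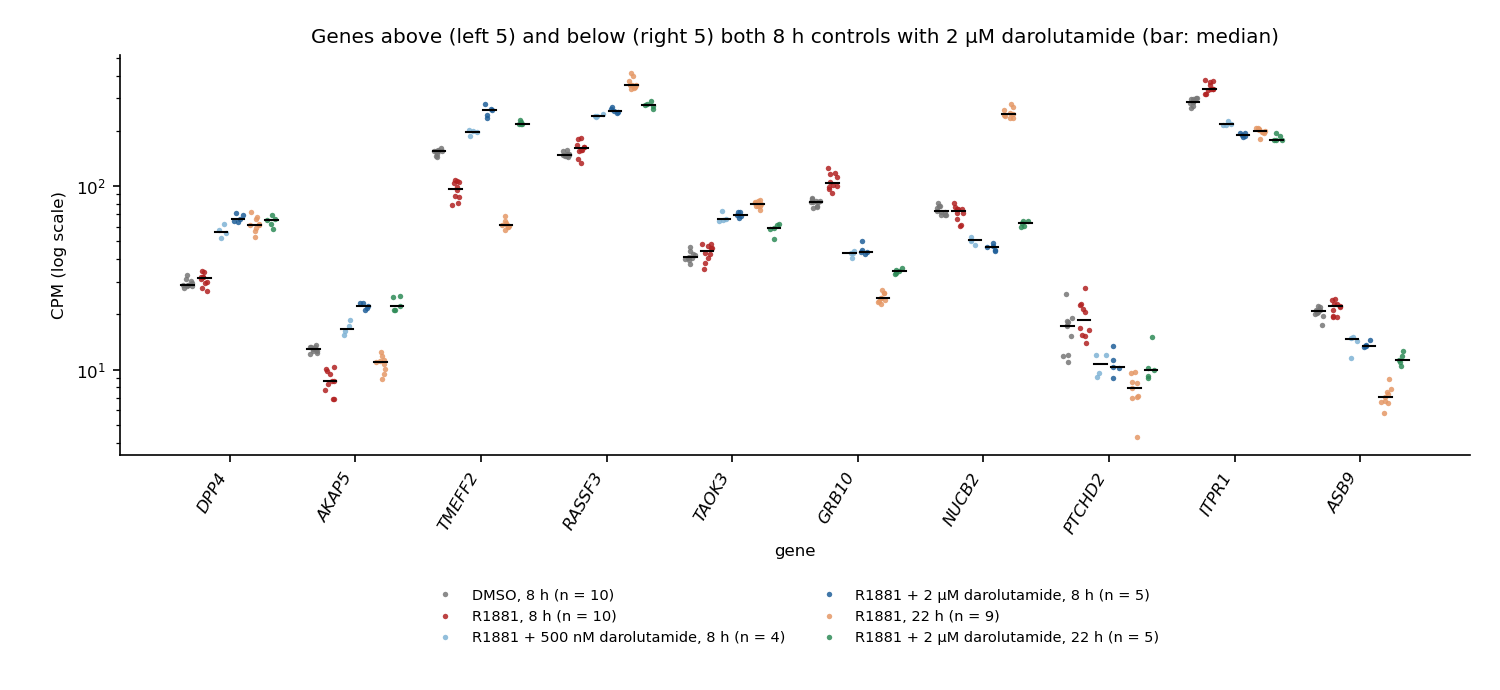
CPM on a log axis in every library for 5 genes above (DPP4 to TAOK3) and 5 below (GRB10 to ASB9) both 8 h controls; colours give DMSO (n = 10), R1881 (n = 10), 500 nM (n = 4) and 2 µM darolutamide (n = 5) at 8 h, and R1881 (n = 9) and 2 µM darolutamide (n = 5) at 22 h, and bars are medians. Both darolutamide doses lie outside the 8 h controls, apart from PTCHD2, whose darolutamide and DMSO points overlap.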

How the data were processed

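RNA from VCaP cultures was made into stranded mRNA libraries and sequenced as single-end reads, and the authors deposited a table of raw counts per gene, aligned with STAR to GRCh38 and counted with featureCounts from Subread, per the labels. The strand setting and the annotation used for counting are not given in the sources used here. Libraries were grouped by their labels. The study describes 5 replicates per condition, whereas 10 libraries carry the R1881 label at 8 h; all 10 were used. A gene was kept when at least 4 of the 55 VCaP libraries held 10 or more reads of it, and all 8 VCaP groups were fitted together in edgeR 4.0.16 (R 4.3.3) with TMM scaling and the quasi-likelihood test. The Benjamini-Hochberg adjustment ran over all 19266 genes at a threshold of 0.05. The interaction was the effect at 22 h minus that at 8 h. A gene was outside both controls where its differences from R1881 and from DMSO had the same sign and the larger of both p-values passed after adjustment. With 17330086 to 25125789 reads per compared library, 1 CPM stood for about 17 to 25 reads. The script was tested on simulated data.

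Named genes were chosen by a rule: genes the study names at super-enhancers with FOXA1, MED1 and ERG; the 10 largest falls and rises among well-expressed protein-coding genes without overlap; the 5 genes furthest above and below both controls; the extremes of position (4 each), interaction (3 each) and dose (3 each); and the 2 furthest called members of each list per direction. Genes mentioned beyond it (the uncalled members of the induced genes, and in the closing section BMP6, BMP7, INHBB, TGFB2, BMPR1A, BMPR1B, TGFBR1, ID1, ID3, SPRY1, DUSP6 and EGR1) were chosen after their values were seen. The members and gene lists were chosen with earlier results of these data known. Gene positions and types came from GENCODE 44, which matched 16080 of the tested genes (83.5%). Alternatives were RLE scaling, DESeq2 1.42.0, other filters, only the groups compared, subsets of the R1881 libraries, a replicate block, a GC slope and each library left out. Results for some genes are not reported here.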

Additional observations from a re-analysis of the deposited data

Results flagged for a closer look

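Of 123 groups of 5 or 10 libraries examined for the named genes of the 8 h comparison, 8 held a library far from the others by Dixon's criterion at 95%, and chance gives about 1 in 20. ACPP was at 4718.8 CPM in darolutamide replicate 3 against a group median of 5092.4. TRIB1 was at 378 CPM in the same library against a median of 432.2. ASB9 was at 14.4 CPM in darolutamide replicate 2 (median 13.4) and at 17.5 CPM in DMSO replicate 10 (median 20.8). B3GALT5 was at 6.87 CPM in R1881 replicate 5 against a median of 4.93. The other 3 were DMSO libraries, with KLK2 at 2705.7 CPM in replicate 4 (median 2445.2), IL20RA at 12.1 CPM in replicate 7 (median 14.2) and IGFBP3 at 390.5 CPM in replicate 9 (median 321.2). No call of these genes was lost when a darolutamide or R1881 library was left out.

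The effect of 2 µM darolutamide differed between 22 h and 8 h, by the interaction test of edgeR, for 9353 genes. Among the well-expressed named genes the difference (22 h minus 8 h, log2) was 3.51 for RDH10, 2.77 for VCL and 2.96 for WNT2. It was -3.08 for STEAP4, -2.78 for MYO1G and -2.37 for MYBPC1.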

How the results depend on the processing

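The count of 10038 called genes ranged from 8771 to 11531 over the alternatives tried (RLE scaling, DESeq2, other filters, only the groups compared, subsets of the R1881 libraries, the replicate block and the GC slope), and that past log2 1 from 1634 to 2233. The share of called genes that were higher, 49.8%, lay between 49.2% and 55.8% over all alternatives, so the near-even split leaned to rises in several of them (5305 higher and 4271 lower with only the groups compared, 5426 and 4587 without R1881 replicate 2). Leaving out each darolutamide library gave 9429 to 9506 called genes, 1636 to 1666 past log2 1, 187 to 200 outside both controls, 8994 to 9108 for the interaction and 3049 to 3256 between doses, and a median position of 66.468% to 67.007%. Leaving out each R1881 library gave 9803 to 10013 and 1644 to 1687. With a GC slope, 393 genes were outside both controls and 5129 differed between doses. The cause was not tested. In no alternative was the direction of a named gene reversed. The MCAT call was lost with R1881 replicates 6 to 10 only (adjusted p = 0.087, edgeR), that of SCG2 without darolutamide replicate 2 (0.051) and that of LAMB3 without darolutamide replicate 3 (0.11). The median of the prostate lineage factors, 0.27, turned to -0.034 over members with mean log2 CPM above 1, where fewer members were counted, and that of the TGF-beta and BMP genes from 0.01 to -0.16. The median change of all genes against R1881 at 8 h stayed at 0.061 or less in size. The hexamer AGAACA was found in 8.06% of matched promoters of lower genes, against 0 for exact matches to the full element, and that share is void for a comparison.

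Replicate numbers did not pair the libraries: deviations of same-numbered darolutamide and R1881 libraries correlated at 0.253, 0.156, -0.277, 0.00395 and 0.0836, and only replicate 1 correlated best with its own number. With the replicate block, 8771 genes were called, 1676 past log2 1, 86 outside both controls, 8061 for the interaction and 2363 between doses, and PGR (adjusted p = 0.061), INSM1 (0.066), SCG2 (0.071) and LAMB3 (0.096) were no longer called by edgeR. With the block and the GC slope together, 11096 were called and 1771 past log2 1, and LAMB3 was not called (0.097). Depth limits the values of genes with a mean under 1 CPM, such as LAMB3, NGFR, KRT15, PGR, COL3A1, CHAC1, ATF3, BMP2, EGR3 and FOS.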

Other observations

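A few further gene groups were split between falls and rises at 8 h. TGF-beta and BMP genes held 10 lower and 10 higher of 25 tested (40.0% each, against 26.2% and 25.9% over all genes), with a median log2 fold change of 0.01 that turned to -0.16 over members with mean log2 CPM above 1. The falls were led by LDLRAD4, an inhibitor of TGF-beta signalling, at -2.14 ± 0.092, and by the coreceptor TGFBR3 at -0.75 ± 0.11. The rises were led by the ligand BMP2 at 2.27 ± 0.35 and by INHBA, the activin A subunit, at 1.84 ± 0.13. Among the other ligands, BMP6, BMP7 and INHBB rose, by 1.55, 1.12 and 1.07, and TGFB2 fell by 0.48. The receptors BMPR1A, BMPR1B and TGFBR1 fell, by 0.35, 0.69 and 0.50. ID1 and ID3, classic targets of BMP signalling, rose by 0.82 ± 0.15 and 0.60 ± 0.16.

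Zinc, manganese and iron transporters held 9 lower (39.1%, background 26.2%) and 8 higher (34.8%, background 25.9%) of 23. The metalloreductase STEAP4 fell by 1.45 ± 0.055 and SLC39A7, a zinc importer of the secretory route, by 0.77 ± 0.033. SLC30A10, a manganese exporter, rose by 2.39 ± 0.24 and the zinc exporter SLC30A4 by 1.38 ± 0.05.

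Of 18 immediate-early and ERK feedback genes tested, 6 were lower (33.3%, background 26.2%) and 7 higher (38.9%, background 25.9%). SPRY4, a feedback inhibitor of growth factor signalling, rose by 4.41 ± 0.24, and its R1881 effect against DMSO had been -5.07. It had 51 to 110 reads in the darolutamide libraries, 2.6 to 4.58 CPM. At 22 h SPRY4 was lower than with R1881, by -1.23 ± 0.17 (interaction -5.65 ± 0.30, adjusted p = 3.75e-23 in edgeR). SPRY1 and DUSP6 rose by 1.61 ± 0.11 and 1.24 ± 0.47. The early response factors EGR3, FOS and EGR1 fell, by 1.58 ± 0.44, 1.53 ± 0.45 and 0.91 ± 0.11. EGR3 and FOS each had only 0 to 5 reads in the darolutamide libraries, and both overlapped the R1881 libraries.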
